A study of Mus musculus with 6 samples.

Results

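Klrc1, Klrd1, Klrk1 and Klrg1 are 4 killer cell lectin-like receptor genes, and their transcripts were followed in regulatory T cells (Treg cells) that lacked the transcription factor Foxo1, carried a constitutively active form of it, or both. All probe sets annotated to the 4 symbols were taken, 5 in number, among probe sets for 18194 genes on the array. The 4 genes were chosen with their levels on these 6 arrays already known, so their own values are given as a description and carry no test. Tests are given for genes listed by function around them, such as other receptors of the family, adaptors, ligands and transcription factors. These lists were also drawn up with earlier results of these data known, so their counts and medians do not come from an independent choice.

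Killer lectin-like receptors are C-type lectin-like proteins of natural killer (NK) cells that also appear on activated and memory T cells. Klrc1 encodes NKG2A, an inhibitory chain with tyrosine-based inhibitory motifs in its tail, which reaches the surface as a heterodimer with CD94, the product of Klrd1, and in mice binds the non-classical class I molecule Qa-1. Klrk1 encodes NKG2D, an activating homodimer that signals through the adaptors Hcst (DAP10) and, in mice, also Tyrobp (DAP12), and that recognises stress-induced ligands of the Raet1, H60 and Ulbp1 families. Klrg1 encodes an inhibitory receptor for cadherins that marks terminally differentiated effector T cells and NK cells and a short-lived effector subset of Treg cells.

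Treg cells were sorted from C57BL/6 mice of 4 genotypes and measured on 6 oligonucleotide arrays. The groups were mice with both Foxo1KO and Foxo1AAA (Foxo1KO/Foxo1AAA, 1 array), Foxo1AAA mice (1 array), Foxo1KO mice (2 arrays) and wild-type mice (WT, 2 arrays). Foxo1AAA is the constitutively active form. The design asked which transcripts change without Foxo1 and whether active Foxo1 brings them back. Not given in the sources used here are the sorting gate, the animals' age and sex, which stretch of Foxo1 was deleted, the Cre driver, the promoter behind Foxo1AAA and whether animals were pooled. The labels do not say whether replicate arrays came from different animals. Y-linked genes differed between the arrays of each pair, as given below, so the arrays of a pair did not hold the same RNA, and p-values cover the spread between these arrays only.

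The Foxo1AAA and Foxo1KO/Foxo1AAA arrays stood apart from the other 4. They correlated with each other at r = 0.994 over 45101 probe sets and with the other arrays at 0.971 to 0.980, against 0.984 to 0.996 among Foxo1KO and WT arrays. Each was the lone array of its genotype, so what sets these arrays apart and the genotype cannot be told apart, and results that rest on them cannot be given without them. Their median over tested genes was 0.17 log2 units above the Foxo1KO and WT medians. The X-inactivation transcript Xist was at 6.27 and 6.04 on the Foxo1KO/Foxo1AAA and Foxo1AAA arrays, against 12.03 to 13.43 on the Foxo1KO and WT arrays. The Y-linked gene Eif2s3y was at 10.56 and 10.59 on the same arrays, at 4.05 and 9.91 on the Foxo1KO arrays and at 3.91 and 10.09 on the WT arrays. Same-numbered Foxo1KO and WT arrays thus shared the Y-linked pattern, and member differences are also given between arrays of the same number. The replicate 2 arrays held high Xist (12.59 in Foxo1KO, 12.03 in WT) together with Y-linked signal. The arrays with Foxo1AAA held Y-linked signal with low Xist, so Foxo1AAA and the sex-linked pattern cannot be told apart. Myeloid markers also differed. The macrophage receptor gene Csf1r measured 12.38 and 11.99 with Foxo1AAA, 9.12 and 8.52 in Foxo1KO and 8.36 and 8.93 in WT. For the 12 myeloid markers the log2 of the summed signal was 13.64 (Foxo1KO/Foxo1AAA) and 13.41 (Foxo1AAA), 11.68 and 11.26 in Foxo1KO and 10.62 and 10.75 in WT. Of the 12 Treg markers on the array the log2 of the summed signal lay between 15.54 and 15.70 on every array, a sum set by its brightest genes. Of 11 tested Treg markers 2 rose and 3 fell in Foxo1KO against WT, where 11.2% of all tested genes were called higher and 10.7% lower. The semaphorin receptor gene Nrp1 fell by 3.21 (SE 0.11, limma adjusted p = 6.6e-07) and the orphan receptor gene Gpr83 fell by 1.20 (SE 0.10, limma adjusted p = 6.5e-05), both named after their values were seen. The other called Treg markers changed less, with Ctla4 (0.46) and Tnfrsf4 (0.32) higher and Cd4 (-0.37) lower. The Foxp3 probe set read here was dim throughout, at 5.10 to 5.58. The targeted gene Foxo1 was at 9.66 in Foxo1KO/Foxo1AAA, 10.71 in Foxo1AAA, 10.87 and 10.65 in Foxo1KO and 11.03 and 11.35 in WT on its brightest probe set, whose place relative to the deletion is not given. Foxo1 fell by 0.43 in Foxo1KO against WT (SE 0.13, limma adjusted p = 0.045), with adjusted p from 0.0098 to 0.24 over alternatives. The call was lost when either Foxo1KO array was left out (0.063 for replicate 1, 0.22 for replicate 2), when WT replicate 2 was left out (0.24) and when arrays were centred (0.063).

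Values are log2 signals normalized across arrays by RMA. Signals flatten near background, so a lowest level was set at 5.47, the dimmest mean over 6 arrays among the 13645 tested genes. Where a group mean lay below it, the fold is given against 5.47 and is a lower bound. Levels of different probe sets depend on their probes and are not set against each other. In bulk RNA, fewer cells that carry a transcript and less of it per cell cannot be told apart.

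**Figure D1:**
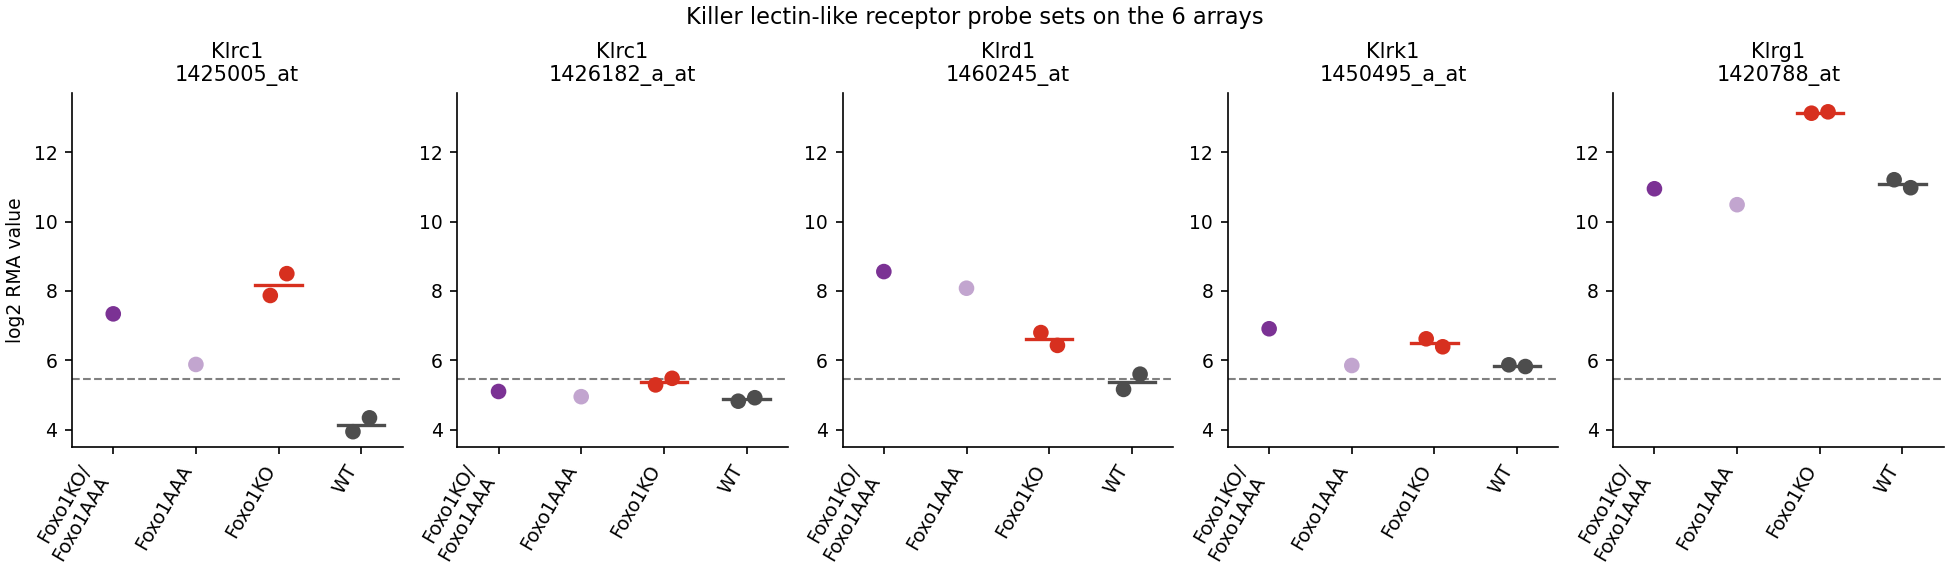
Log2 RMA value of each of the 5 probe sets on every array, by genotype (1 point per array, short lines are means of the 2 Foxo1KO and 2 WT arrays, the dashed line is the lowest level of 5.47). Klrc1 and Klrg1 stand highest in Foxo1KO, Klrd1 stands highest on the arrays with Foxo1AAA, and the lower Klrc1 probe set (1426182_a_at) stays at 5.48 or below.

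The inhibitory chain Klrc1 was near background in WT and well above it in Foxo1KO. Probe set 1425005_at measured 7.34 in Foxo1KO/Foxo1AAA, 5.88 in Foxo1AAA, 7.87 and 8.50 in Foxo1KO and 3.94 and 4.34 in WT. Both Foxo1KO arrays lay far above both WT arrays, and the gap of 4.04 log2 units between the means (8.18 ± 0.45 and 4.14 ± 0.28, SD, n = 2 each) exceeded the 0.63 and 0.40 that separated arrays of the same genotype. Since the WT mean lay below 5.47, Klrc1 was at least 6.58-fold higher in Foxo1KO. Between arrays of the same number it was 3.93 and 4.16 log2 units higher in Foxo1KO. With active Foxo1 in the knockout Klrc1 was 0.84 lower than in Foxo1KO (1.79-fold), a gap not much wider than the 0.63 between the Foxo1KO arrays, and it remained above WT. On the Foxo1AAA array Klrc1 was 1.74 above WT and just above the lowest level, at least 1.33-fold. The Foxo1KO/Foxo1AAA array was 1.46 above the Foxo1AAA array (2.76-fold), and 0.0660% of tested genes differed as much between these arrays.

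The other Klrc1 probe set, 1426182_a_at, had a mean of 5.09 and was left out of the tested genes. It measured 5.10 in Foxo1KO/Foxo1AAA, 4.95 in Foxo1AAA, 5.29 and 5.48 in Foxo1KO and 4.82 and 4.92 in WT. Its order of groups was that of 1425005_at, with all group means below 5.47, so no fold is given.

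Klrd1, which encodes the CD94 partner of NKG2A, followed another order. Probe set 1460245_at measured 8.56 in Foxo1KO/Foxo1AAA, 8.08 in Foxo1AAA, 6.80 and 6.43 in Foxo1KO and 5.16 and 5.60 in WT. The Foxo1KO arrays lay above the WT arrays, by 1.23 between means of 6.62 ± 0.26 and 5.38 ± 0.31 (SD, n = 2 each), or at least 2.22-fold, and by 1.64 and 0.83 between arrays of the same number. Klrd1 was higher still where Foxo1AAA was present, by 1.95 in Foxo1KO/Foxo1AAA over Foxo1KO (3.86-fold) and by 2.70 in Foxo1AAA over WT (at least 6.14-fold). The lone arrays with Foxo1AAA differed by 0.48, close to the 0.37 and 0.44 that separated the Foxo1KO and WT pairs. The order of levels was therefore both Foxo1AAA genotypes, then Foxo1KO, then WT, and the highest neighbours in it did not stand clearly apart. Klrd1 was thus highest on the arrays where the summed myeloid markers were highest. Of 10 tested myeloid markers 8 rose and 1 fell in Foxo1KO/Foxo1AAA against Foxo1KO, where 19.6% of all tested genes were called higher and 20.2% lower. In Foxo1AAA against WT 9 rose and 0 fell, beside 13.4% and 14.1% of all. In Foxo1KO against WT 4 rose and 0 fell, beside 11.2% and 10.7% of all. The summed signal of 6 CD8 T cell markers, set mostly by the chemokine gene Ccl5, had a log2 of 12.76 in Foxo1KO/Foxo1AAA, 12.31 in Foxo1AAA, 11.98 and 11.93 in Foxo1KO and 11.18 and 10.92 in WT. Of these 6 markers 3 rose and 2 fell in Foxo1KO/Foxo1AAA against Foxo1KO, beside the same 19.6% and 20.2% of all tested genes. The lower ones were Cd8a (-0.63) and the chemokine gene Xcl1 (-1.07, limma adjusted p = 0.0022). The part of such cells in the Klrd1 level was not tested.

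Klrk1, the activating receptor NKG2D, showed the smallest difference between Foxo1KO and WT of the 4 genes. Probe set 1450495_a_at measured 6.91 in Foxo1KO/Foxo1AAA, 5.85 in Foxo1AAA, 6.62 and 6.39 in Foxo1KO and 5.87 and 5.82 in WT. The 3 arrays from genotypes with Foxo1KO were the 3 highest, and the Foxo1AAA array lay between the WT arrays. Klrk1 was 1.58-fold higher in Foxo1KO than in WT (0.66 log2 units between 6.51 ± 0.16 and 5.84 ± 0.04, SD, n = 2 each), and 8.55% of tested genes differed as much. Between arrays of the same number the differences were 0.75 and 0.58. On the Foxo1AAA array its difference from WT was 0.01, or -0.15 once arrays were centred on their medians. In Foxo1KO/Foxo1AAA it was 0.40 above Foxo1KO, or 0.23 once centred, and 1.05 above Foxo1AAA (2.07-fold). Only 0.220% of tested genes differed as much between the last pair of arrays. Klrk1 values were not far above the lowest level, where arrays can understate differences.

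Klrg1, the inhibitory receptor for cadherins, was bright on every array and brightest in Foxo1KO. Probe set 1420788_at measured 10.95 in Foxo1KO/Foxo1AAA, 10.49 in Foxo1AAA, 13.13 and 13.17 in Foxo1KO and 11.21 and 10.98 in WT. Klrg1 was 4.16-fold higher in Foxo1KO than in WT (2.06 log2 units between 13.15 ± 0.03 and 11.10 ± 0.16, SD, n = 2 each), a size reached by 0.520% of tested genes, and between arrays of the same number the differences were 1.92 and 2.19. Active Foxo1 in the knockout went with a level 2.21 below Foxo1KO (4.61-fold lower), which was also just below both WT arrays. The Foxo1AAA array was the lowest, 0.60 under the WT mean (0.77 under it with arrays centred on their medians), more than the 0.23 between the WT arrays. The Foxo1KO/Foxo1AAA array exceeded the Foxo1AAA array by 0.45.

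Set side by side, the 4 genes shared a direction between Foxo1KO and WT but differed in their order on the other arrays. For each of the 4, on the probe set kept for the gene, both Foxo1KO arrays lay above both WT arrays, as did 32.7% of all tested genes, and the genes were chosen with this comparison known. Beside Foxo1KO, the Foxo1KO/Foxo1AAA array was lower for Klrc1 and Klrg1 and higher for Klrd1 and Klrk1. Beside WT, the Foxo1AAA array was higher for Klrc1 and Klrd1, lower for Klrg1 and within the WT pair for Klrk1. These comparisons share the Foxo1KO or the WT arrays and are not independent of each other. Over the 6 arrays, which fall into few genotypes, the root mean square difference of centred profiles was 0.97 log2 units for Klrk1 and Klrg1, 1.80 for Klrd1 and Klrg1 and 1.50 for Klrc1 and Klrd1, whose products form 1 receptor. This measure weighs the size of differences, and a correlation ranks the pairs otherwise.

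**Figure D2:**
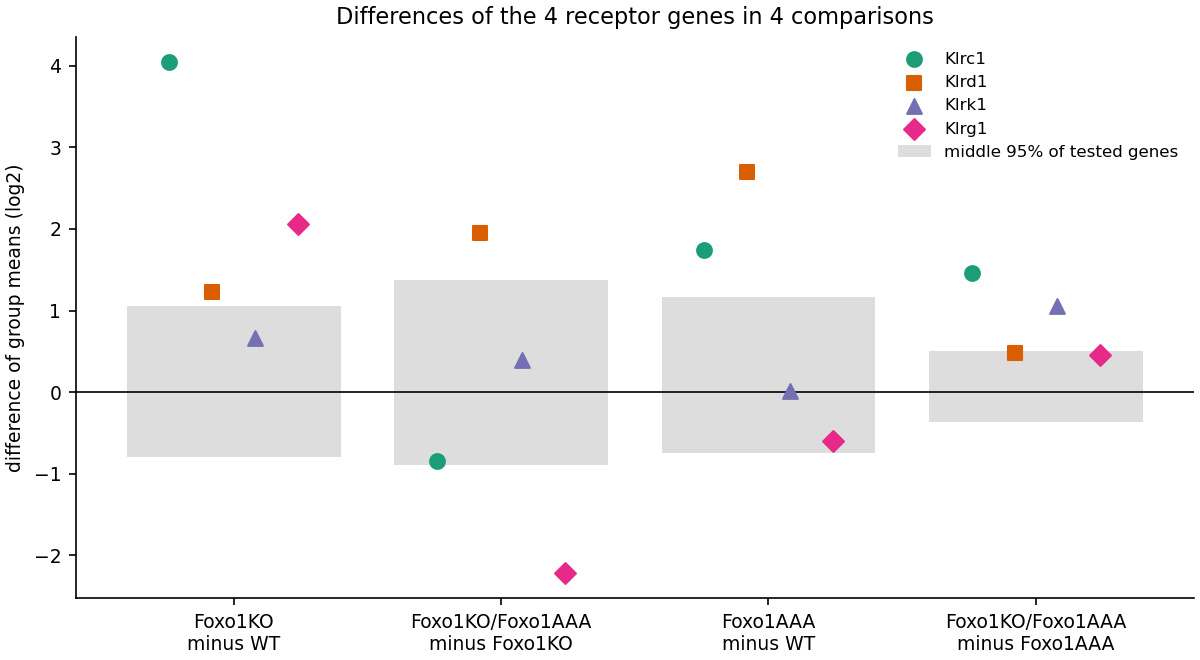
Difference of group means in log2 units for the 4 genes in each of 4 comparisons (symbols), over the range that holds the middle 95% of the 13645 tested genes (grey bars). Klrc1 (4.04), Klrg1 (2.06) and Klrd1 (1.23) lie above the bar for Foxo1KO minus WT, which ends at 1.05. For Foxo1KO/Foxo1AAA minus Foxo1KO, Klrg1 (-2.21) lies below the bar and Klrd1 (1.95) above it. Klrd1 (2.70) and Klrc1 (1.74) lie above the bar for Foxo1AAA minus WT. Klrc1 (1.46) and Klrk1 (1.05) lie above the bar for Foxo1KO/Foxo1AAA minus Foxo1AAA.

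For each gene the 3 tested genes with the most similar profile over the 6 arrays were named by the root mean square difference of centred log2 values, as a description of arrays that share genotype and sex-linked differences. Around Klrc1 these were Gm4951 (0.39), the interferon-inducible membrane protein gene Ifitm3 (0.42) and Havcr2 (0.48), which encodes the inhibitory receptor Tim-3. Around Klrd1 they were the MHC class II gene H2-Eb1 (0.24) and the lysozyme genes Lyz1 (0.25) and Lyz2 (0.32), all genes of antigen-presenting or myeloid cells. This depended on the measure. By Pearson correlation the 3 nearest to Klrd1 were H1f2, Kif3a and Mef2c, and 250 genes had r above 0.95. H2-Eb1 measured 10.14 in Foxo1KO/Foxo1AAA, 10.16 in Foxo1AAA, 8.71 and 7.77 in Foxo1KO and 6.79 and 7.31 in WT. Around Klrk1 they were the chemokine gene Ccl4 (0.11), the cell cycle factor E2f1 (0.14) and the granzyme gene Gzmc (0.15). Around Klrg1 they were the transcriptional repressor Klf12 (0.13), the potassium channel gene Kcnj15 (0.13) and the glycosyltransferase gene Gcnt1 (0.16). Kcnj15 measured 7.17 and 7.27 in Foxo1KO. It lay below the lowest level elsewhere, at 4.9 in Foxo1KO/Foxo1AAA, 4.44 in Foxo1AAA and 4.89 and 4.87 in WT. Signals flatten there, so the likeness of Kcnj15 to Klrg1 on those arrays is less certain.

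**Figure D3:**
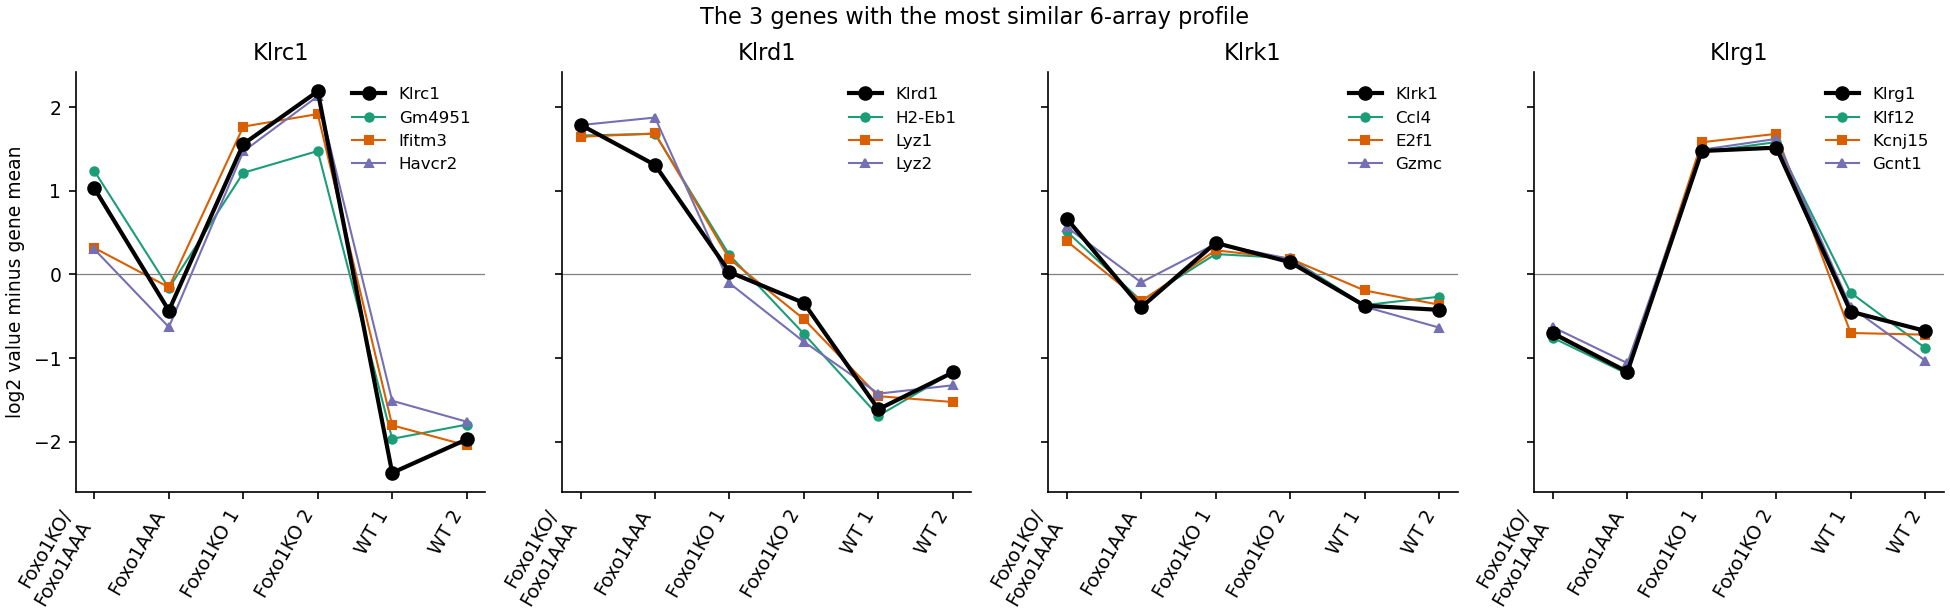
Log2 value minus the gene's mean over the 6 arrays, for each of the 4 receptor genes (black) and the 3 tested genes nearest to it (coloured), with arrays along the axis. The Klrd1 panel steps down from the Foxo1AAA arrays to WT with H2-Eb1, Lyz1 and Lyz2, whereas the Klrg1 panel peaks on both Foxo1KO arrays.

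All 4 genes lie on mouse chromosome 6, where the natural killer gene complex is found. In RefSeq's gene order (GRCm38.p6, used for order only, as no build goes with the array) the receptor genes run Klre1, Klrd1, Klrk1, Klrc3, Klrc2, Klrc1, with Klrg1 farther off. The genes between and beside them were not bright: Klrc3 stayed between 3.86 and 3.97, Klrc2 between 3.86 and 4.37 and Klre1 between 4.64 and 4.89 on all arrays. RefSeq promoter windows were at hand for 2 of the 4 genes, Klrc1 and Klrk1, both higher in Foxo1KO. They are printed to show whether the letters of a Foxo site stand near the start of either gene. Each window runs from 250 bases before an annotated start of transcription to 50 after it, on the minus strand of GRCm38.p6, at chr6:129678924-129679223 for Klrc1 and chr6:129623815-129624114 for Klrk1. Capitals mark a Runx motif in either orientation (TGTGGT or ACCACA) and an AP-1 motif (TGANTCA).
Klrc1: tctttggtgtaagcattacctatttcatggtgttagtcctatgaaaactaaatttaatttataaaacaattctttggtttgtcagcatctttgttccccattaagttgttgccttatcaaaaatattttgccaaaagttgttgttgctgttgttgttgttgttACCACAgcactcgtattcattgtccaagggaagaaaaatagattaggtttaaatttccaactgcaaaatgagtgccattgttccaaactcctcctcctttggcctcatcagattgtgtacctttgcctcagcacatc
Klrk1: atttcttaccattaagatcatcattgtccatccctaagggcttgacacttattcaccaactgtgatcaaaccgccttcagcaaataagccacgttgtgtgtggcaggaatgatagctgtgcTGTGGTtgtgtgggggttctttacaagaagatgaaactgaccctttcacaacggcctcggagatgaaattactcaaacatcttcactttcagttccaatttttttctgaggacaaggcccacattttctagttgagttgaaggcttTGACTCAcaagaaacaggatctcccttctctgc
The Foxo motif GTAAACA, searched on both strands, was in neither window, and 3.65% of 32851 RefSeq promoter windows of this length held it. The Runx motif began 87 bases upstream of the start in Klrc1 and 129 bases upstream in Klrk1, and 16.8% of windows held it. The AP-1 motif began 17 bases downstream of the start in Klrk1, and 7.81% of windows held it. The T-box motif AGGTGTNA was in neither window and in 3.03% of all. The Stat motif, TTC and GAA with any 3 bases between them, was in neither window and in 8.30% of all. The Gata motif AGATAA was in neither window and in 11.2% of all. No motif overlapped another. A match is a description of letters, and a window without one says nothing of sites elsewhere.

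The rest of the family was mostly dim. Of 30 other killer lectin-like receptor genes listed, 14 had a probe set of their own, and 12 of these fell below the lowest level by their mean. The 12 dim genes, among them 7 of the Klra (Ly49) genes, ranged from 3.33 to 5.53 over all arrays. Klrb1f and Klrg2 were tested. Tests were made with limma over all 13645 genes with Benjamini-Hochberg adjustment, and a gene was called at an adjusted p under 0.05. In Foxo1KO against WT 11.2% of tested genes were called higher and 10.7% lower. Klrb1f, an activating NKR-P1 receptor, measured 7.62 and 7.84 in Foxo1KO and 7.18 and 6.63 in WT and rose by 0.82 (SE 0.17, limma adjusted p = 0.0081). With Foxo1KO replicate 2 left out it was no longer called (0.72, adjusted p = 0.072, over alternatives 7.9e-05 to 0.072). Klrg2, a relative of Klrg1, differed by -0.03 and was not called.

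Of all tested genes 19.6% were called higher and 20.2% lower in Foxo1KO/Foxo1AAA than in Foxo1KO, and 13.4% higher and 14.1% lower in Foxo1AAA than in WT. With arrays centred on their medians the splits were 1686 higher and 4603 lower in place of 2670 and 2760 for Foxo1KO/Foxo1AAA against Foxo1KO, and 1160 and 3805 in place of 1834 and 1924 for Foxo1AAA against WT. Centring takes the 0.17 shift of array medians off each difference, although the median difference of all tested genes was already -0.02 in both comparisons. Centred values of these comparisons therefore lean downward. With the dimmest 50% of genes left out the splits leaned the other way, to 2265 higher and 1158 lower and to 1500 higher and 736 lower. Klrb1f, at 6.41 in Foxo1KO/Foxo1AAA, fell by 1.32 against Foxo1KO (SE 0.21, limma adjusted p = 0.0017). On the Foxo1AAA array, at 6.04, it fell by 0.87 against WT (SE 0.21, limma adjusted p = 0.016). Klrg2 fell by 0.64 in Foxo1AAA, at 5.72, against 6.41 and 6.31 in WT (SE 0.16, limma adjusted p = 0.020). Its difference of -0.16 between Foxo1KO/Foxo1AAA and Foxo1KO was not called.

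**Figure D4:**
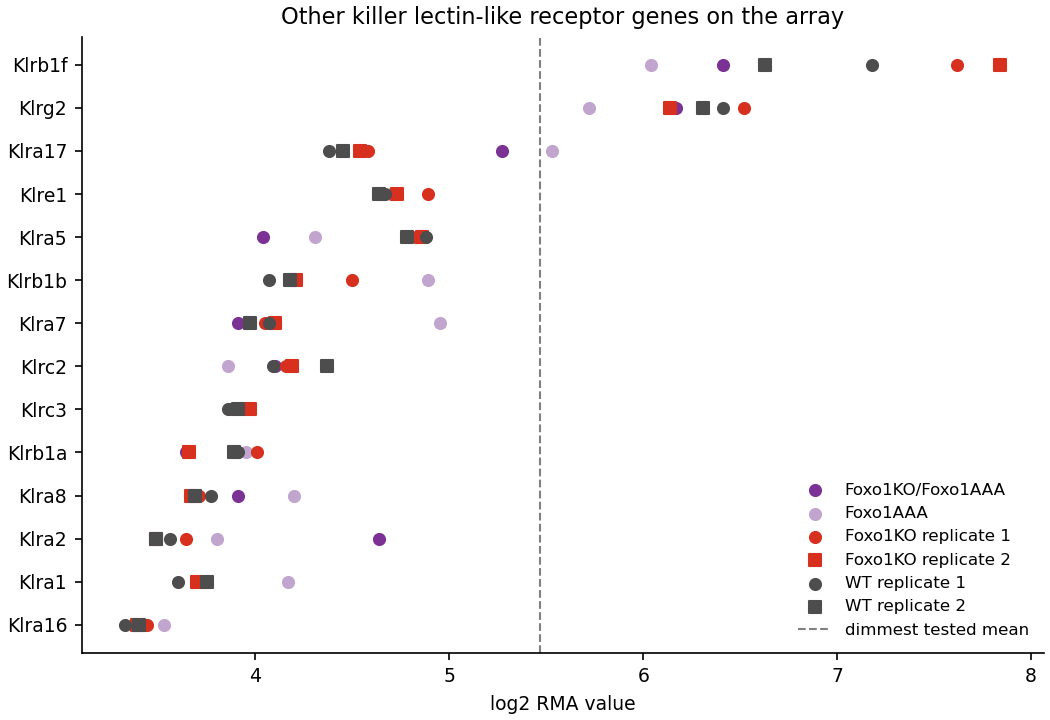
Log2 RMA values of the 14 other killer lectin-like receptor genes with a probe set of their own on each array (points, coloured by genotype), with a dashed line at the lowest level of 5.47. Klrb1f and Klrg2 lie above the line on all arrays, and of the rest only Klra17 crosses it, at 5.53 on the Foxo1AAA array.

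The adaptors of the activating receptors behaved differently from one another. Hcst, the DAP10 partner of NKG2D, was bright and nearly level, at 10.70 in Foxo1KO/Foxo1AAA, 10.75 in Foxo1AAA, 11.02 and 10.96 in Foxo1KO and 10.95 and 10.95 in WT. It was not called in any of the 4 comparisons. In Foxo1KO/Foxo1AAA against Foxo1KO its difference of -0.29 (adjusted p = 0.070, over alternatives 0.013 to 0.18) was called with the mean of probe sets (0.043), with a trend in the prior (0.036) and with centred arrays (-0.46, adjusted p = 0.013). In Foxo1AAA against WT it was called with centred arrays (-0.37, adjusted p = 0.036, over alternatives 0.036 to 0.38). Tyrobp, the DAP12 adaptor of NK and myeloid receptors, was at 10.72 in Foxo1KO/Foxo1AAA, 10.75 in Foxo1AAA, 8.13 and 7.23 in Foxo1KO and 7.11 and 7.58 in WT. It rose by 3.04 in Foxo1KO/Foxo1AAA against Foxo1KO (SE 0.32, limma adjusted p = 0.00023) and by 3.40 in Foxo1AAA against WT (SE 0.32, limma adjusted p = 0.0002). Fcer1g, the Fc receptor gamma chain, rose by 3.20 and 3.31 in the same comparisons (limma adjusted p = 1.5e-05 and 2.7e-05). These adaptors are also myeloid genes, and they rose on the arrays where Csf1r was high. The part of myeloid cells in their levels was not tested. In Foxo1KO against WT neither adaptor was called (0.33 for Tyrobp and 0.39 for Fcer1g). Leaving out Foxo1KO replicate 2 brought Tyrobp to 0.78 (adjusted p = 0.040, over alternatives 0.040 to 0.87). Leaving out WT replicate 2 brought Fcer1g to 0.58 (adjusted p = 0.034, over alternatives 0.034 to 0.60).

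Among 17 tested adaptors and signalling enzymes, 1 rose and 3 fell in Foxo1KO against WT, with a median difference of 0.01 beside 0.03 for all tested genes. Ptpn6, the phosphatase SHP-1 recruited by NKG2A, fell by 0.58 (SE 0.10, limma adjusted p = 0.0026), with 10.15 and 10.27 in Foxo1KO and 10.77 and 10.81 in WT. Inpp5d, the lipid phosphatase SHIP-1 that Klrg1 recruits, rose by 0.52 (SE 0.10, limma adjusted p = 0.0070), which was lost when Foxo1KO replicate 2 was left out (0.42, adjusted p = 0.053, over alternatives 0.0013 to 0.053). The exchange factor Vav3 fell by 0.56 (SE 0.09, limma adjusted p = 0.0026). The phospholipase Plcg1 fell by 0.37 (SE 0.10, limma adjusted p = 0.026), with adjusted p from 0.0083 to 0.38 over alternatives. Leaving out Foxo1KO replicate 1 (adjusted p = 0.15), WT replicate 1 (0.089) or WT replicate 2 (0.086), or taking the mean of its probe sets (-0.11, adjusted p = 0.38), removed this call. In Foxo1KO/Foxo1AAA against Foxo1KO 8 rose and 2 fell (median 0.14, all tested genes -0.02), or 7 and 5 with centred arrays (median -0.04). In Foxo1AAA against WT 3 rose and 0 fell by limma (median 0.15, all tested genes -0.02), with 8 of the 17 at an unadjusted p under 0.05, or 3 and 2 with centred arrays (median -0.02). Ptpn6 rose by 0.87 in Foxo1KO/Foxo1AAA against Foxo1KO (limma adjusted p = 0.00083) and Inpp5d fell by 0.53 (limma adjusted p = 0.011).

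Ligands were measured in the same cells. Of 18 ligand genes listed, 10 had a probe set of their own and 6 were bright enough to test, and H2-T23, the Raet1 genes, H60a and H60b were not analysed here. Clec2i, a C-type lectin that binds NKR-P1 receptors, fell by 0.62 in Foxo1KO (SE 0.10, limma adjusted p = 0.0018), with 8.68 and 8.77 in Foxo1KO and 9.39 and 9.30 in WT. It rose by 0.71 in Foxo1KO/Foxo1AAA against Foxo1KO (SE 0.12, limma adjusted p = 0.0023), although not with the mean of its probe sets (0.11, adjusted p = 0.56, range over alternatives 0.0011 to 0.56). The NKG2D ligand gene Ulbp1 stayed between 5.40 and 5.72 on all arrays and was not called in any of the 4 comparisons. H60c, the other NKG2D ligand gene with a probe set of its own, was below the lowest level by its mean, at 4.57 in Foxo1KO/Foxo1AAA, 4.69 in Foxo1AAA, 5.24 and 5.11 in Foxo1KO and 5.61 and 5.62 in WT. The cadherin ligands of Klrg1 were dim too. Cdh1 (E-cadherin) measured 4.94 in Foxo1KO/Foxo1AAA, 4.92 in Foxo1AAA, 5.67 and 5.40 in Foxo1KO and 4.49 and 4.92 in WT, Cdh2 lay between 4.32 and 4.69, and Cdh4 between 5.43 and 5.74 with no call.

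Cytokine receptors and transcription factors known to govern such receptors in NK and T cells formed a further list. Of 24 listed, 21 were tested, and 10 rose and 4 fell in Foxo1KO against WT, with a median difference of 0.16 beside 0.03 for all tested genes. Eomes, a T-box factor of NK cells and memory CD8 T cells, rose by 2.25 (SE 0.10, limma adjusted p = 2.3e-06), with 8.81 and 8.74 in Foxo1KO and 6.59 and 6.47 in WT. Il12rb1, a chain of the IL-12 receptor, rose by 1.88 (SE 0.11, limma adjusted p = 9.9e-06). Id3, an inhibitor of E proteins that holds T cells in a naive or memory state, fell by 2.35 (SE 0.14, limma adjusted p = 1.4e-05). Bach2, a repressor of effector genes, fell by 1.42 (SE 0.09, limma adjusted p = 2.2e-05). Tbx21, which encodes T-bet and was picked after its values were seen, rose by 2.23 (SE 0.20, limma adjusted p = 8.1e-05). Il2rb, the shared IL-2 and IL-15 receptor chain, likewise picked, differed by 0.14 and was not called.

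In Foxo1KO/Foxo1AAA against Foxo1KO 3 of the 21 rose and 8 fell, with a median of -0.20 beside -0.02 for all tested genes. With the mean of probe sets 6 rose and 6 fell (median 0.05), so the lean to lower depended on the probe set taken. The IL-18 receptor chain Il18r1 fell by 2.06 (SE 0.17, limma adjusted p = 6.1e-05), at 10.16 in Foxo1KO/Foxo1AAA and 12.15 and 12.29 in Foxo1KO. Il12rb1 fell by 1.59 (SE 0.13, limma adjusted p = 5.6e-05), at 8.36 in Foxo1KO/Foxo1AAA and 9.96 and 9.94 in Foxo1KO. In Foxo1AAA against WT 3 rose and 3 fell, with a median of 0.09, or -0.07 with centred arrays. Between Foxo1KO/Foxo1AAA and Foxo1AAA limma called 0 of the 21, with 5 at an unadjusted p under 0.05, where 0.0733% of all tested genes were called. The test of whether the knockout difference itself differed with and without Foxo1AAA called 5.94% of tested genes, among them Eomes (-1.46, SE 0.17, limma adjusted p = 0.0026) and Id3 (2.06, SE 0.25, limma adjusted p = 0.0034). Eomes and Id3 were named for their Foxo1KO against WT difference, which is part of this test.

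**Figure D5:**
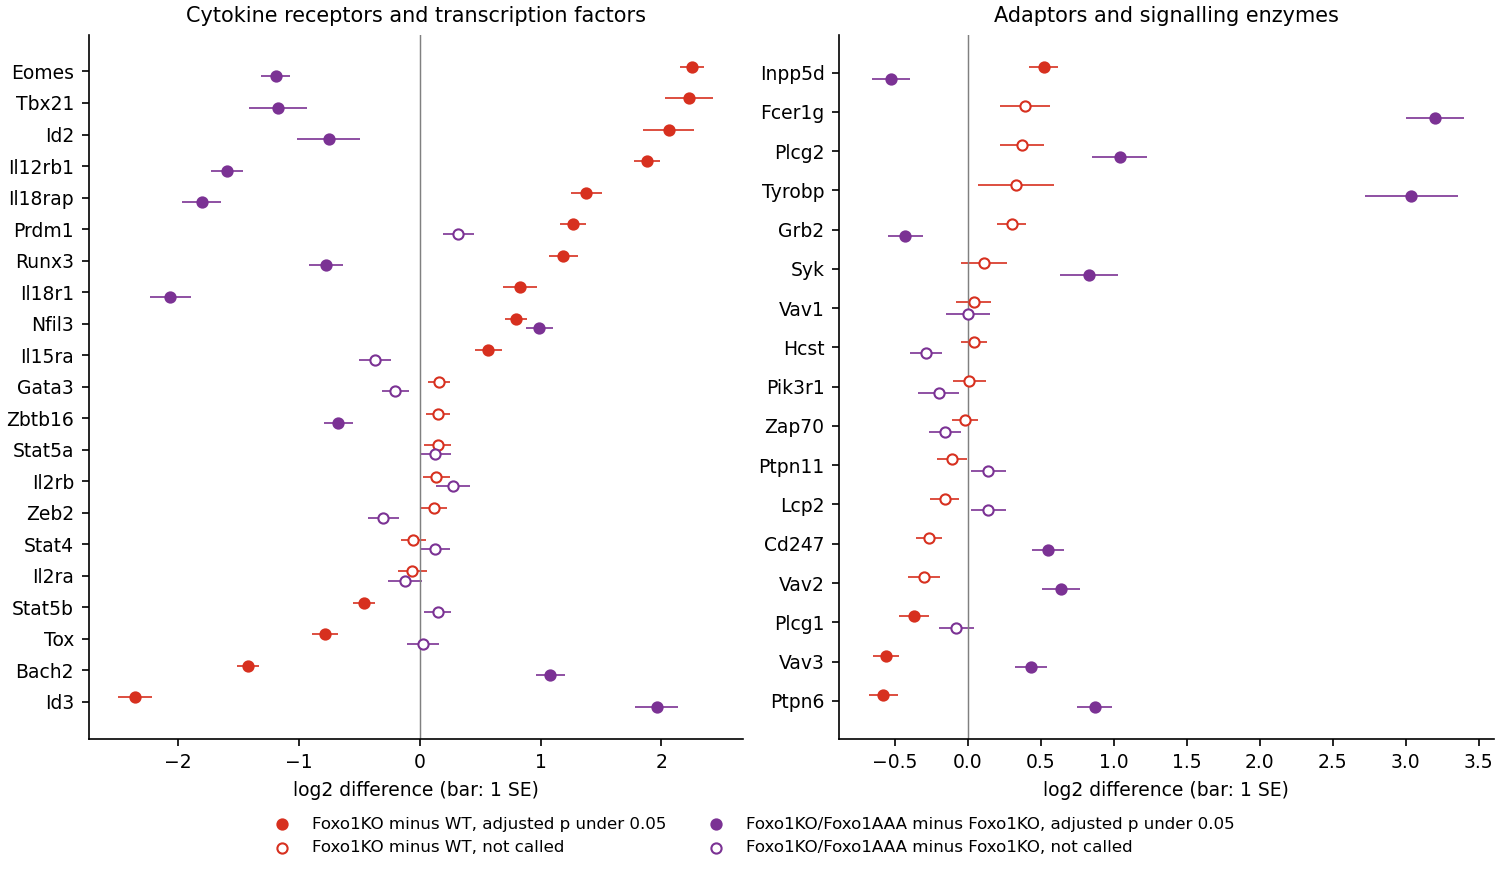
Log2 difference with 1 SE for the tested cytokine receptors and transcription factors (left) and the adaptors and signalling enzymes (right) in Foxo1KO minus WT (red) and Foxo1KO/Foxo1AAA minus Foxo1KO (purple), filled where the limma adjusted p was under 0.05. The comparisons share the Foxo1KO arrays. Eomes (2.25) and Id3 (-2.35) lie at the ends for Foxo1KO minus WT, and Tyrobp (3.04) and Fcer1g (3.20) stand out for Foxo1KO/Foxo1AAA minus Foxo1KO.

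Genes that accompany Klrg1 on effector Treg cells were counted as well. Of 12 tested, 7 rose and 1 fell in Foxo1KO against WT, with a median of 0.94 beside 0.03 for all tested genes. Granzyme B (Gzmb) rose by 4.41 (SE 0.10, limma adjusted p = 1.1e-07) and Havcr2 by 3.44 (SE 0.19, limma adjusted p = 9.2e-06). The Th1 chemokine receptor Cxcr3 rose by 1.15 (SE 0.11, limma adjusted p = 0.00011), and the lymph node homing receptor Ccr7, included as a gene of resting cells, fell by 1.66 (SE 0.10, limma adjusted p = 1.3e-05). In Foxo1KO/Foxo1AAA against Foxo1KO 4 rose and 6 fell (median -0.29), or 5 and 5 with the mean of probe sets (median -0.21). Gzmb fell by 3.46 (SE 0.13, limma adjusted p = 1.8e-06), whereas the inhibitory receptor Lag3 rose by 2.44 (SE 0.11, limma adjusted p = 3.3e-06), with 9.16 in Foxo1KO/Foxo1AAA and 6.74 and 6.68 in Foxo1KO. In Foxo1AAA against WT 6 rose and 2 fell (median 0.42). Ccr7, the gene of resting cells, is counted among those that rose in these comparisons. It rose by 2.20 in Foxo1KO/Foxo1AAA against Foxo1KO (limma adjusted p = 8.1e-06) and by 0.80 in Foxo1AAA against WT (limma adjusted p = 0.0027). Between Foxo1KO/Foxo1AAA and Foxo1AAA only Gzmb of the 12 was called, at 10.99 in Foxo1KO/Foxo1AAA and 8.78 in Foxo1AAA (2.20, SE 0.14, limma adjusted p = 0.00074).

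Markers of cells that carry these receptors outside the Treg lineage were read beside them. Of 9 tested NK markers, 3 rose and 0 fell in Foxo1KO against WT by limma, with 5 at an unadjusted p under 0.05. The defining NK gene Ncr1 lay between 5.29 and 5.76 on every array, around the lowest level, and was not called in any of the 4 comparisons. The log2 of the summed signal of 10 NK markers was 12.57 in Foxo1KO/Foxo1AAA, 12.29 in Foxo1AAA, 12.59 and 12.74 in Foxo1KO and 10.80 and 10.63 in WT. Nkg7, a granule gene that effector T cells also carry, was the brightest of them in Foxo1KO, at 12.17 and 12.44, against 9.98 and 9.51 in WT. On the Foxo1KO/Foxo1AAA and Foxo1AAA arrays the brightest was Tyrobp (10.72 and 10.75), with Fcer1g at 10.19 and 9.91, both also myeloid genes. The sums in Foxo1KO and with Foxo1AAA were thus set by different genes and do not measure the same signal. The CD8 chain gene Cd8a measured 7.37 in Foxo1KO/Foxo1AAA, 7.14 in Foxo1AAA, 8.13 and 7.87 in Foxo1KO and 7.71 and 7.90 in WT, and Cd8b1 measured 8.69, 8.28, 7.75 and 7.78, and 7.60 and 7.57 in the same order. Neither was called in Foxo1KO against WT (0.19 and 0.18), whereas 3 of the other 4 CD8 T cell markers rose. Ccl5 rose by 1.09 (SE 0.13, limma adjusted p = 0.00043), Xcl1 by 1.27 (SE 0.14, limma adjusted p = 0.00031) and Gzmk by 0.75 (SE 0.18, limma adjusted p = 0.015), the last not without Foxo1KO replicate 1 (0.46, adjusted p = 0.065, over alternatives 0.0028 to 0.065), and Crtam was not called. These 3 genes and Nkg7 were named after their values were seen. The part of CD8 T cells or NK cells in the levels of Klrc1 and Klrg1 was not tested. In Foxo1KO/Foxo1AAA against Foxo1KO Cd8b1 rose by 0.92 (limma adjusted p = 0.00048) and Cd8a fell by 0.63 (limma adjusted p = 0.010). The Cd8a call was lost with the mean of its probe sets (-0.27, adjusted p = 0.055, range over alternatives 0.0044 to 0.055). Of 3 tested markers of gamma delta and NKT cells, 1 rose in Foxo1KO against WT, and of 7 B cell markers 1 rose and 1 fell. In Foxo1KO/Foxo1AAA against Foxo1KO 3 of the former fell, and 3 B cell markers rose and 0 fell. In Foxo1AAA against WT 1 of the former fell, and 5 B cell markers rose and 0 fell. The log2 of the summed B cell signal was 13.53 in Foxo1KO/Foxo1AAA, 13.74 in Foxo1AAA, 12.46 and 11.98 in Foxo1KO and 12.61 and 12.80 in WT.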

How the data were processed

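Treg cell RNA of 6 samples was hybridised to mouse oligonucleotide arrays with 45101 probe sets. The authors deposited log2 signals made with RMA, and R 2.15 and limma 3.12.1 are also listed, per the submitters' processing notes. RMA shares information across arrays and sets all arrays to 1 distribution over probe sets. No counts lie behind array values, and the number of arrays limits the precision. GEO's platform annotation gave 1 gene for 34958 probe sets, several for 932 and none listed for 9211. Each of 18194 genes was read from its probe set with the highest mean, which bears on 9012 genes with several, and the dimmest 25% were left out.

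The 13645 remaining genes entered a linear model (limma 3.58.1, R 4.3.3) that has 1 coefficient per genotype, with empirical Bayes moderation and Benjamini-Hochberg adjustment at 0.05. Only the Foxo1KO and WT pairs give residual degrees of freedom (2), so the lone arrays are assumed to vary like those pairs. The procedure was tested on simulated data. With 2 arrays against 2, the smallest p of an exact permutation test is 0.333.

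The members and all gene lists were chosen with earlier results of these data known, so member values carry no test. Named are the members, called receptor genes, direct partners and ligands, defining markers of other cells, and in each other list up to 4 called genes with the smallest adjusted p for Foxo1KO against WT and up to 2 for Foxo1KO/Foxo1AAA against Foxo1KO. Motifs were chosen after the sequences were seen. Alternatives covered the filter, the probe set rule, the prior, scaling, left-out arrays and the replicate number as a block. Same-numbered Foxo1KO and WT arrays share their Y-linked pattern, but over all tested genes their deviations from the group means correlated at -0.096 and no label gives the numbers a meaning, so the main model has no block.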

Additional observations from a re-analysis of the deposited data

Results flagged for a closer look

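The difference between knockout and non-knockout cells was itself compared with and without Foxo1AAA, as Foxo1KO/Foxo1AAA minus Foxo1AAA less Foxo1KO minus WT, by an interaction term in limma. It was called for 5.94% of tested genes, and for 12 genes named here, of which Tbx21, Nkg7, Nrp1 and Gpr83 were named after their values were seen. Genes named only for their likeness to a receptor gene are left out, since that choice fixes their profile. Gzmb, Havcr2, Cxcr3, Ccr7, Eomes, Il12rb1, Id3 and Bach2 were named for a small adjusted p in Foxo1KO against WT. That difference is part of the interaction, and choosing large ones favours an interaction of the opposite sign. The calls and signs below are therefore not independent of how the genes were chosen. Havcr2 is kept as a listed companion of Klrg1, although it is also among the genes nearest to Klrc1. These values rest on the lone Foxo1AAA arrays, which also differ in sex-linked genes and myeloid markers. For the 4 receptor genes this difference was not tested.

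The granzyme gene Gzmb was 2.20 higher with the knockout where Foxo1AAA was present and 4.41 higher where it was not, a difference of -2.21 (SE 0.18, limma adjusted p = 0.00043). For Havcr2 the knockout differences were 0.92 and 3.44 (-2.51, SE 0.33, limma adjusted p = 0.0050). For Il12rb1 they were 0.20 and 1.88 (-1.69, SE 0.18, limma adjusted p = 0.0024). Eomes gave 0.79 and 2.25 (-1.46, SE 0.17, limma adjusted p = 0.0026). Cxcr3 gave 0.20 and 1.15 (-0.95, SE 0.19, limma adjusted p = 0.022), which was lost when Foxo1KO replicate 2 was left out (-0.89, adjusted p = 0.075). Nkg7 gave 0.63 and 2.56 (-1.93, SE 0.27, limma adjusted p = 0.0059). Tbx21 gave 0.64 and 2.23 (-1.59, SE 0.34, limma adjusted p = 0.031), which was lost with either Foxo1KO array left out (-1.72, adjusted p = 0.063 without replicate 1, and -1.46, adjusted p = 0.11 without replicate 2), with centred arrays (0.051) and with a robust prior (0.058). Genes lower in the knockout differed the other way. Nrp1 gave -0.15 and -3.21 (3.06, SE 0.19, limma adjusted p = 0.00015) and Gpr83 gave -0.21 and -1.20 (1.00, SE 0.18, limma adjusted p = 0.015). Id3 gave -0.29 and -2.35 (2.06, SE 0.25, limma adjusted p = 0.0034), Ccr7 gave -0.26 and -1.66 (1.40, SE 0.17, limma adjusted p = 0.0040), and Bach2 gave -0.15 and -1.42 (1.28, SE 0.16, limma adjusted p = 0.0046).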

How the results depend on the processing

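For the genes named with a test, no direction of a called value reversed under any alternative fitted by gene. The other called genes were not checked for this. Fitting every probe set gave 6187 calls for Foxo1KO against WT, 13826 for Foxo1KO/Foxo1AAA against Foxo1KO, 10647 for Foxo1AAA against WT, 25 for Foxo1KO/Foxo1AAA against Foxo1AAA and 1345 for the interaction, over more features. Leaving out the dimmest 50% of genes gave 3423 calls for Foxo1KO/Foxo1AAA against Foxo1KO and 2236 for Foxo1AAA against WT, with fewer genes tested. Against 10 calls, Foxo1KO/Foxo1AAA against Foxo1AAA gave 3 with centred arrays, 3 without the dimmest 50%, 41 with the mean of probe sets, 73 with no filter, 38 with a robust prior, 30 with a trend in the prior and 7 to 91 without 1 replicate array (91 without WT replicate 1 or 2). The interaction, with 811 calls, gave 443 (without Foxo1KO replicate 2) to 917 with 1 replicate array left out and 989 with a trend in the prior. For these, beyond the number tested, the cause was not tested. With the mean of its probe sets, which includes the dim one, Klrc1 differed by 2.28 in Foxo1KO against WT, 0.91 in Foxo1AAA against WT and 0.81 in Foxo1KO/Foxo1AAA against Foxo1AAA. Centring moved Klrk1 to 0.23 (Foxo1KO/Foxo1AAA against Foxo1KO) and -0.15 (Foxo1AAA against WT), and Klrg1 to -2.38 and -0.77, by the shift of array medians. For the other receptor genes, calls without the dimmest 50% were 0 in Foxo1KO against WT, 0 in Foxo1KO/Foxo1AAA against Foxo1KO and 0 in Foxo1AAA against WT, as limma then tested neither gene. They were 0 to 1 in Foxo1KO against WT without 1 replicate array, and with no filter 4 in Foxo1KO/Foxo1AAA against Foxo1KO, 8 in Foxo1AAA against WT and 2 in Foxo1KO/Foxo1AAA against Foxo1AAA. Adaptor calls in Foxo1AAA against WT were 5 with centring and 5 with a trend. Ligand calls were 3 in Foxo1KO against WT, 3 in Foxo1KO/Foxo1AAA against Foxo1KO and 1 in Foxo1AAA against WT with no filter, 0 in Foxo1KO/Foxo1AAA against Foxo1KO with the mean of probe sets and 1 in Foxo1AAA against WT with a trend. Regulator calls in Foxo1KO/Foxo1AAA against Foxo1AAA were 0 to 1 without 1 replicate array, the 1 being Eomes without WT replicate 1 or 2 (0.79, limma adjusted p = 0.035). With the replicate number as a block, 2458 genes were called for Foxo1KO against WT, in place of 2980, and the calls of Plcg1 (adjusted p = 0.056) and Foxo1 (0.060) ended. By Pearson correlation 0 of the 3 nearest genes were shared for each receptor gene, so likeness depended on the measure. Signals below the lowest level limit Klrc1 and Klrd1 in WT and the dim Klrc1 probe set.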
